A study of Mus musculus with 8 samples.

Results

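Genes for the synthesis, regulation and transport of cholesterol and fatty acids were followed in mouse neural progenitors (NP cells) with and without *Sox3*. The genes were taken from a list of 33 symbols that covers the mevalonate pathway, the conversion of squalene to cholesterol, the SREBP regulators, sterol transport, and fatty acid synthesis and desaturation. *Sc4mol* is an older symbol of *Msmo1*, so the list holds 32 genes. No row of the table was named for *Acat2*, and 31 genes were measured, of 19938 genes with a transcript cluster (the group of probes that reports a gene on these arrays) of their own.

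All samples were R1 ES cells, a mouse embryonic stem cell line, differentiated as monolayers in the serum-free neural medium N2B27 and collected at Day 4. The control line carried a conditional *Sox3* allele, is labelled Sox3 positive and is called wild type in the methods, and the *Sox3* null line carried a GFP reporter knocked into the *Sox3* locus. Each genotype had 4 cultures, 2 in each of 2 independent differentiations, which the labels call differentiation batches, and each culture had its own Affymetrix mouse gene array. Replicates 1 and 2 of each genotype belonged to batch 1 and replicates 3 and 4 to batch 2.

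Cells make cholesterol from acetyl-CoA by way of mevalonate, farnesyl diphosphate, squalene and lanosterol. When sterols in the endoplasmic reticulum run low, SCAP carries SREBP precursors to the Golgi, where they are cut to release transcription factors that bind sterol regulatory elements, often beside NF-Y and SP1 sites, and raise transcription of the enzymes. INSIG proteins hold the SCAP-SREBP complex back when sterols are plentiful, and oxysterols activate the LXR receptors, which raise sterol export genes such as *Abca1*. Neural cells make most of their own cholesterol, and proliferating progenitors need it for new membranes.

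The start regions of 5 of the genes are shown because they carry, or lack, the sequence words that SREBP and NF-Y are known to bind. These genes were chosen with their batch differences known. A link between the words and the batch differences was not tested. The sequences were those of RefSeq on GRCm38.p6, and each was the 250 bases before the transcription start, read along the gene. Capitals mark TCACNCCAC or its shorter form TCACNCCA, the words of the sterol regulatory element searched here, and CCAAT (the NF-Y box), each on either strand, so that a CCAAT on the other strand reads ATTGG.
Hmgcs1 chr13:119690101-119690350, plus strand: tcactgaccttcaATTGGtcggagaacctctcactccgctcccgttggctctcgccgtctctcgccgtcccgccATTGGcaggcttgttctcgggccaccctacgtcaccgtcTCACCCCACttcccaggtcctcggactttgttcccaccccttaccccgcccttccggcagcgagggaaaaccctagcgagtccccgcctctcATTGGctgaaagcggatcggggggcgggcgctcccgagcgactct
Srebf2 chr15:82147019-82147268, plus strand: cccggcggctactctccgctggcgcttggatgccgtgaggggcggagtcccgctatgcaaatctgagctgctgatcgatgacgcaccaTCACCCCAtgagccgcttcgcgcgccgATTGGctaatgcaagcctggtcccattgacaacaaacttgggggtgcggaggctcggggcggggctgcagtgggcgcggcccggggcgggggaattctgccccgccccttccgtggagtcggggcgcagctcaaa
Hsd17b7 chr1:169969206-169969455, minus strand: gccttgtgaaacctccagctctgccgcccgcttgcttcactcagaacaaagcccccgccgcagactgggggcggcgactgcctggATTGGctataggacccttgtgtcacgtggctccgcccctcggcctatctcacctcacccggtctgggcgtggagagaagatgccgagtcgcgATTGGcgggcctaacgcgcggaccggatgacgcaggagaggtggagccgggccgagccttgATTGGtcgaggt
Tm7sf2 chr19:6067851-6068100, minus strand: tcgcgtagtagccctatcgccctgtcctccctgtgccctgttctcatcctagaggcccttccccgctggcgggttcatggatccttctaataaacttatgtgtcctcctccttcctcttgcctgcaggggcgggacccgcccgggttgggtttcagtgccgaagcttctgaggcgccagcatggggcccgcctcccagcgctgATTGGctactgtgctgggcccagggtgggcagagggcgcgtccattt
Abca1 chr4:53159896-53160145, minus strand: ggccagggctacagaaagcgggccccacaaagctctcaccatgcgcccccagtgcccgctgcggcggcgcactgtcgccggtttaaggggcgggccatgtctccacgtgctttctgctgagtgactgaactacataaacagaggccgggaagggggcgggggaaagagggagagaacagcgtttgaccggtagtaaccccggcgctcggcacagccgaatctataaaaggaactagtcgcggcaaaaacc
*Hmgcs1* held the full word from 137 to 129 bases before its start, between CCAAT boxes, and *Srebf2* held the shorter form from 162 to 155 bases before its start. *Hsd17b7* held 3 CCAAT boxes and *Tm7sf2* held 1, and in *Abca1* none of these words was found in this window.

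A promoter window of 300 bases, 250 before the start and 50 after it, was found in the RefSeq table for 24 of the 31 genes. *Fdps*, *Fdft1*, *Sqle*, *Stard4*, *Scd1*, *Scd2* and *Fads1* had no entry. CCAAT occurred on either strand in the windows of 19 of the 24 genes (79.2%), against 41.7% of the 15563 genes on the arrays that had a window. GGGCGG, the GC box, occurred in 20 (83.3%) against 53.0%. TCACNCCAC occurred in 1 (4.17%) against 1.39%, CACNCCAC, which lies inside it, in 2 (8.33%) against 7.32%, and TCACNCCA, which overlaps both and was added after the windows had been seen, in 3 (12.5%) against 4.61%. Over all 27025 genes in the table the shares were 41.1% for CCAAT, 38.2% for GGGCGG, 1.44% for TCACNCCAC, 7.12% for CACNCCAC and 4.97% for TCACNCCA. These are matches of letters and were not tested.

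Over the rows with a gene name, the medians of the 8 arrays lay between 7.63 and 7.70 on the log2 scale, and the first principal component, which held 48.8% of the variance, separated the batches. *Sox3* itself was lower in all 4 *Sox3* null arrays (log2 signals of at most 8.67) than in all 4 control arrays (at least 9.73). Each genotype was a different ES cell line, so an effect of *Sox3* and a difference between lines cannot be told apart. In the same way, batch is 1 differentiation against 1, and the p-values measure only the spread between cultures, and this may be technical, since the labels do not say how the cultures of a batch were separated. In these bulk samples, fewer cells of a type and less RNA per cell cannot be told apart.

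In *Sox3* null cells the sterol and fatty acid genes were close to their control levels. With batch in the model, 0 of the 31 genes passed the threshold for genotype (limma, adjusted p of 0.05 or less). Of all 23410 transcript clusters tested, 1.55% passed. An unadjusted p below 0.05 was found for 4 of the 31 genes and for 3068 of the 23410 transcript clusters. The log2 differences, *Sox3* null minus control, ran from -0.11 to 0.18 with a median of 0.02, and 12 lay below 0 and 19 above. The 95% intervals of all 31 genes excluded a change of 1.4-fold in either direction, and the widest reached 1.24-fold. No gene had its 4 *Sox3* null arrays all above or all below its 4 control arrays. The share of all transcript clusters that did was not counted, so nothing is drawn from this count. In simulated arrays of this design, limma recovered 84% of genes given a log2 change of 0.5 and 23% of those given 0.25, so smaller changes could have been missed.

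**Figure D1:**
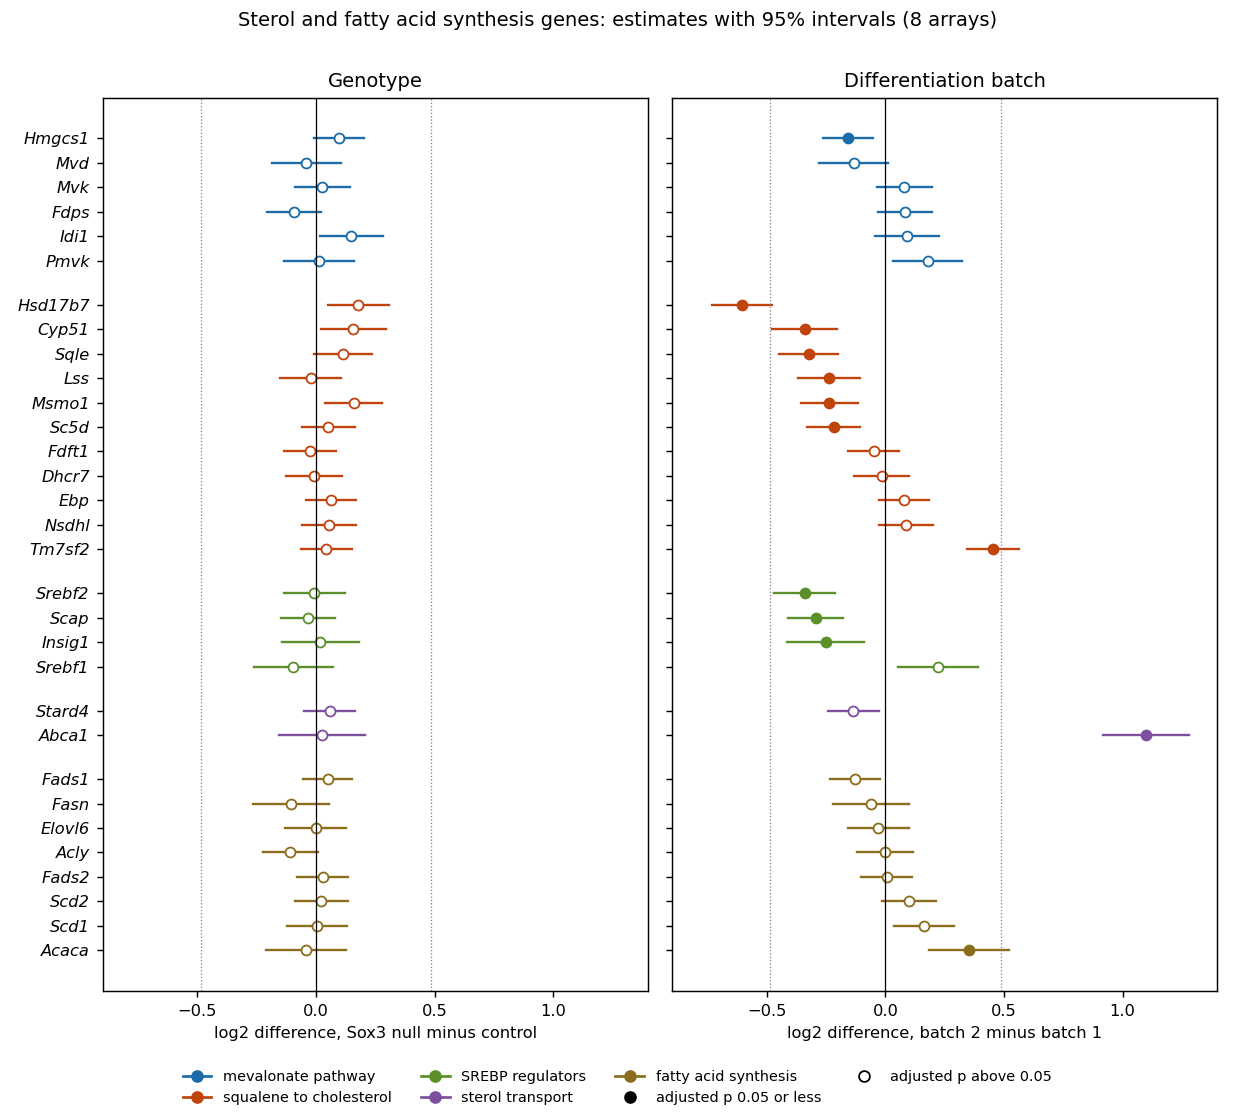
Estimated log2 difference of each of the 31 genes (points) with its 95% interval (lines), for *Sox3* null minus control on the left and batch 2 minus batch 1 on the right, coloured by role. Filled points had an adjusted p of 0.05 or less (limma) and dotted lines mark 1.4-fold. All 31 points on the left are open, whereas 13 on the right are filled, 10 below 0 and 3 above.

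The 4 smallest genotype p-values belonged to enzymes that were slightly higher in *Sox3* null cells. *Hsd17b7*, a reductase of post-squalene sterol synthesis, had log2 signals of 10.59 ± 0.353 in control and 10.77 ± 0.36 in *Sox3* null cells (SD, n = 4), a difference of 0.18 with an SE of 0.058 (adjusted p = 0.201, limma). The difference was 0.18 within batch 1 and 0.17 within batch 2, and in each batch the null arrays were the higher, though the genotypes overlapped over the 8 arrays. *Msmo1*, the sterol methyl oxidase, had log2 signals of 12.30 and 12.26 in control and 12.50 and 12.36 in *Sox3* null cells of batch 1, and 11.99 and 12.09 in control and 12.14 and 12.26 in *Sox3* null cells of batch 2. Its difference was 0.16 with an SE of 0.055 (adjusted p = 0.234, limma), again with the higher arrays of either batch in *Sox3* null cells. *Cyp51*, the lanosterol demethylase, differed by 0.16 with an SE of 0.062 (adjusted p = 0.301, limma).

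*Idi1*, the isomerase that provides the isoprenoid building blocks, had log2 signals of 11.48, 11.54, 11.64 and 11.49 in control replicates 1 to 4 and 11.72, 11.52, 11.79 and 11.71 in the *Sox3* null replicates. Its null arrays lay mostly above the control arrays but *Sox3* null replicate 2 lay among them. The difference was 0.15 with an SE of 0.061 (adjusted p = 0.319, limma), and a further *Idi1* transcript cluster gave 0.17. *Sqle*, which makes squalene epoxide, differed by 0.11 with an SE of 0.056 (adjusted p = 0.428, limma). *Acly*, which supplies cytosolic acetyl-CoA from citrate, had 12.03, 11.92, 12.03 and 12.04 in control and 11.89, 11.97, 11.84 and 11.88 in *Sox3* null replicates 1 to 4. It was the lowest of the estimates, at -0.11 with an SE of 0.053 (adjusted p = 0.424, limma), and its genotypes overlapped through control replicate 2 and *Sox3* null replicate 2.

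The genotype difference was also fitted within each batch. Within batch 1, 0 of 31 genes passed (0.333% of all tested) and 0 had an unadjusted p below 0.05 (1812 of all 23410 tested). Within batch 2, 0 passed (0.457% of all tested) and 1 had an unadjusted p below 0.05 (2007 of all 23410). For the interaction of genotype and batch, 0 of 31 genes passed, where 0% of all transcript clusters passed. An unadjusted p below 0.05 was found for 0 of the 31 and for 715 of all 23410.

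The batches differed at these genes in both genotypes. Between differentiations, 13 of 31 genes passed for batch 2 against batch 1 (41.9%, where 20.2% of all transcript clusters passed), 10 of them lower in batch 2 (32.3%, against 9.35% of all) and 3 higher (9.68%, against 10.9%). Among transcript clusters whose mean over the 8 arrays was above the median signal, 14.1% were lower and 18.8% higher. All 31 genes lie there, *Abca1* only through its arrays of batch 2. The shares of all transcript clusters set beside counts of genes, here and below, include dimmer ones, so the shares above the median signal are the closer comparison. The difference was 1.4-fold or more for 2 genes, *Hsd17b7* and *Abca1*, where 2.49% of all transcript clusters reached that size. The median log2 difference, batch 2 minus batch 1, was -0.03 over the 31 genes and 0.00 over all tested, and the genes ran from -0.60 to 1.10. The 4 arrays of batch 2 lay all below those of batch 1 for 10 genes and all above for 4, together 45.2% of the 31, where 21% of all transcript clusters had batches that did not overlap.

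The split of these calls moved with the scaling of the arrays. The median of all rows was lower by 0.08 on the log2 scale in batch 2, mostly through rows with no gene name, whereas that of the named rows was lower by 0.03. When each array was centred on the median of all rows, 5 genes were lower and 8 higher, where 5.59% of all transcript clusters were lower and 20.5% higher. When it was centred on the median of the named rows, 9 genes were lower and 6 higher, against 7.97% and 13.9% of all. Quantile normalization of the deposited values gave 11 lower and 4 higher, against 8.89% and 12.7% of all. Under all 4 scalings, *Hsd17b7*, *Cyp51*, *Sqle*, *Srebf2* and *Scap* passed as lower and *Abca1*, *Tm7sf2* and *Acaca* as higher in batch 2, whereas 12 genes passed under none.

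**Figure D2:**
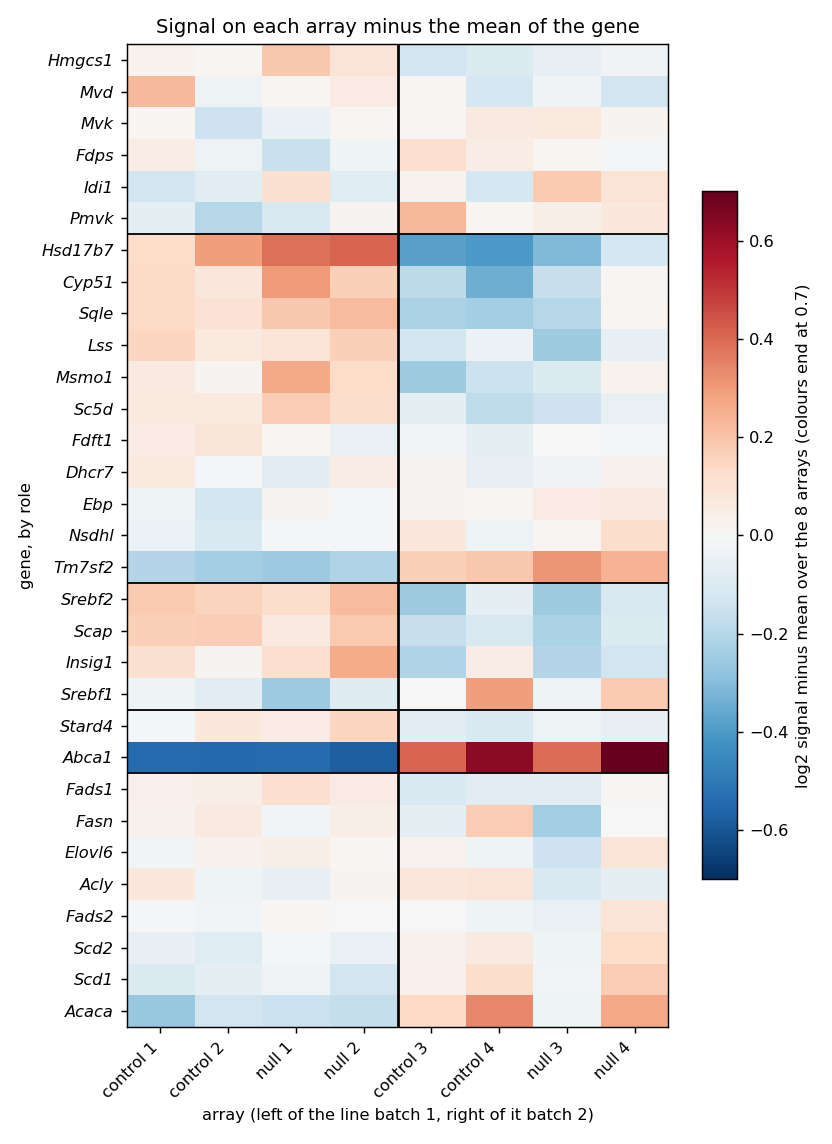
Log2 signal of each of the 31 genes on each array minus the mean of that gene over the 8 arrays, with genes in rows by role (lines part the roles) and arrays in columns, batch 1 left of the line and batch 2 right of it. *Hsd17b7*, *Srebf2* and *Scap* change from red to blue across the line and *Abca1* and *Tm7sf2* from blue to red, in both genotypes. *Cyp51* and *Sqle* change from red to blue except on *Sox3* null replicate 4, which lies slightly above the mean of the gene. *Acaca* changes from blue to red except on *Sox3* null replicate 3, which lies slightly below the mean.

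Of the 4 SREBP regulators, 3 were lower in batch 2 (75%), as the map of deviations by array shows. Of all transcript clusters 9.35% were lower, and of those above the median signal 14.1%. *Srebf2*, which encodes the SREBP that drives sterol synthesis genes, had log2 signals of 11.78 and 11.75 in control and 11.72 and 11.81 in *Sox3* null cells of batch 1. In batch 2 it had 11.34 and 11.52 in control and 11.35 and 11.48 in *Sox3* null cells, all below the lowest array of batch 1. The log2 difference was -0.34 with an SE of 0.058 (adjusted p = 0.00236, limma), which is 1.27-fold. A transcript cluster that *Srebf2* shares with 3 other symbols gave -0.03 (adjusted p = 0.843, limma) and was not counted. *Scap*, the escort protein of SREBP, had 10.31 and 10.32 in control and 10.21 and 10.33 in *Sox3* null cells of batch 1, against 9.98 and 10.03 and 9.92 and 10.05 in batch 2. These batches did not overlap either, and the log2 difference was -0.29 with an SE of 0.052 (adjusted p = 0.00280, limma).

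*Insig1*, which retains the SCAP-SREBP complex and is itself a target of SREBP, had log2 signals of 11.78 and 11.69 in control and 11.79 and 11.93 in *Sox3* null cells of batch 1. In batch 2 it had 11.46 and 11.72 in control and 11.46 and 11.53 in *Sox3* null cells, so that control replicate 4 overlapped batch 1. The log2 difference was -0.25 with an SE of 0.074 (adjusted p = 0.0339, limma). It passed without control replicate 2 (adjusted p = 0.0328, limma) or control replicate 4 (0.00498) but missed the threshold without each of the other 6 arrays (0.0670 to 0.107). *Srebf1*, whose products drive fatty acid synthesis genes, did not pass. It had 9.46 and 9.41 in control and 9.23 and 9.40 in *Sox3* null cells of batch 1, and 9.49 and 9.78 in control and 9.45 and 9.67 in *Sox3* null cells of batch 2. The log2 difference was 0.22 with an SE of 0.076 (adjusted p = 0.0642, limma), and it passed without control replicate 3 (0.29, adjusted p = 0.0263), when the arrays were centred on the median of all rows (0.30, adjusted p = 0.00577) or of the named rows (0.25, adjusted p = 0.0247), and when they were quantile normalized again (0.23, adjusted p = 0.0443).

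In the mevalonate pathway 1 of 6 measured genes passed for batch (16.7%, where 20.2% of all transcript clusters did), and the median log2 difference was 0.08. *Hmgcs1*, which makes HMG-CoA, fell by 0.16 on the log2 scale in batch 2 with an SE of 0.048 (adjusted p = 0.0407, limma). Its arrays ran from 12.51 to 12.69 in batch 1 and from 12.37 to 12.47 in batch 2, without overlap, but it missed the threshold when any of the 8 arrays was left out (adjusted p between 0.0523 and 0.116, limma). The kinases *Mvk* and *Pmvk* had differences of 0.08 and 0.18, and the decarboxylase *Mvd* had -0.13. *Idi1* had 0.09, with 0.10 for its further transcript cluster, and *Fdps*, which makes farnesyl diphosphate, had 0.08. None of these 5 genes passed (adjusted p between 0.0852 and 0.349, limma).

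Between squalene and cholesterol 7 of 11 genes passed (63.6%, where 20.2% of all transcript clusters did), 6 lower (54.5%, against 9.35%) and 1 higher in batch 2 (9.09%, against 10.9%), and the median log2 difference was -0.22. Among transcript clusters above the median signal 14.1% were lower and 18.8% higher. *Hsd17b7* had 10.81 and 10.97 in control and 11.07 and 11.09 in *Sox3* null cells of batch 1, against 10.30 and 10.28 in control and 10.38 and 10.56 in *Sox3* null cells of batch 2. All arrays of batch 2 were lower, and the log2 difference was -0.60 with an SE of 0.058 (adjusted p = 1.15e-04, limma), which is 1.52-fold. *Cyp51* had 10.61 and 10.56 in control and 10.78 and 10.64 in *Sox3* null cells of batch 1, and 10.29 and 10.13 in control and 10.32 and 10.49 in *Sox3* null cells of batch 2. Its log2 difference was -0.34 with an SE of 0.062 (adjusted p = 0.00315, limma), and the batches did not overlap.

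*Sqle* had log2 signals of 11.42 and 11.38 in control and 11.48 and 11.51 in *Sox3* null cells of batch 1. In batch 2 it had 11.06 and 11.05 in control and 11.09 and 11.30 in *Sox3* null cells, where *Sox3* null replicate 4 stood above the other 3 arrays yet below all of batch 1. The log2 difference was -0.32 with an SE of 0.056 (adjusted p = 0.00251, limma). *Lss*, which closes the rings of lanosterol, fell by 0.24 on the log2 scale with an SE of 0.058 (adjusted p = 0.0156, limma), and missed the threshold without *Sox3* null replicate 2 (adjusted p = 0.0525). *Msmo1* also fell by 0.24, with an SE of 0.055 (adjusted p = 0.0113, limma), although *Sox3* null replicate 4, at 12.26, reached the lowest arrays of batch 1. *Sc5d*, a late desaturase, had 10.86 and 10.87 in control and 10.98 and 10.92 in *Sox3* null cells of batch 1 and 10.73, 10.62, 10.65 and 10.74 in the same order in batch 2. It fell by 0.22 with an SE of 0.051 (adjusted p = 0.0119, limma), without overlap. *Lss*, *Msmo1* and *Sc5d* missed the threshold when the arrays were centred on the median of all rows (-0.16, -0.16 and -0.14, adjusted p between 0.0651 and 0.121), as did *Insig1* (-0.17) and *Hmgcs1* (-0.08, and -0.13 when centred on the named rows).

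*Tm7sf2*, a sterol reductase of the same segment, went the other way. It had 9.60 and 9.57 in control and 9.55 and 9.59 in *Sox3* null cells of batch 1, and 9.97 and 9.99 in control and 10.11 and 10.05 in *Sox3* null cells of batch 2. The arrays of each batch lay close together and well apart from the other batch, with a log2 difference of 0.45 and an SE of 0.049 (adjusted p = 1.94e-04, limma). *Lbr*, the lamin B receptor, which catalyses the same reduction and is outside the list of 31, was higher in batch 2 by 0.20 with an SE of 0.053 (adjusted p = 0.0228, limma). The remaining genes of the segment did not pass. *Fdft1*, squalene synthase, had a difference of -0.05, the reductase *Dhcr7* had -0.02, the isomerase *Ebp* had 0.08 and the dehydrogenase *Nsdhl* had 0.09 (adjusted p between 0.299 and 0.885, limma). A further *Fdft1* transcript cluster gave -0.11 (adjusted p = 0.138, limma), with batches that did not overlap.

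The median deviation of the 11 genes on each array shows the same by culture. It was 0.07 and 0.07 in control and 0.09 and 0.12 in *Sox3* null cells of batch 1, and -0.06 and -0.06 in control and -0.10 and 0.02 in *Sox3* null cells of batch 2. *Sox3* null replicate 4 thus lay nearest to batch 1 among the arrays of batch 2. Over all 23410 transcript clusters the median deviation stayed between -0.03 and 0.02 on every array.

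**Figure D3:**
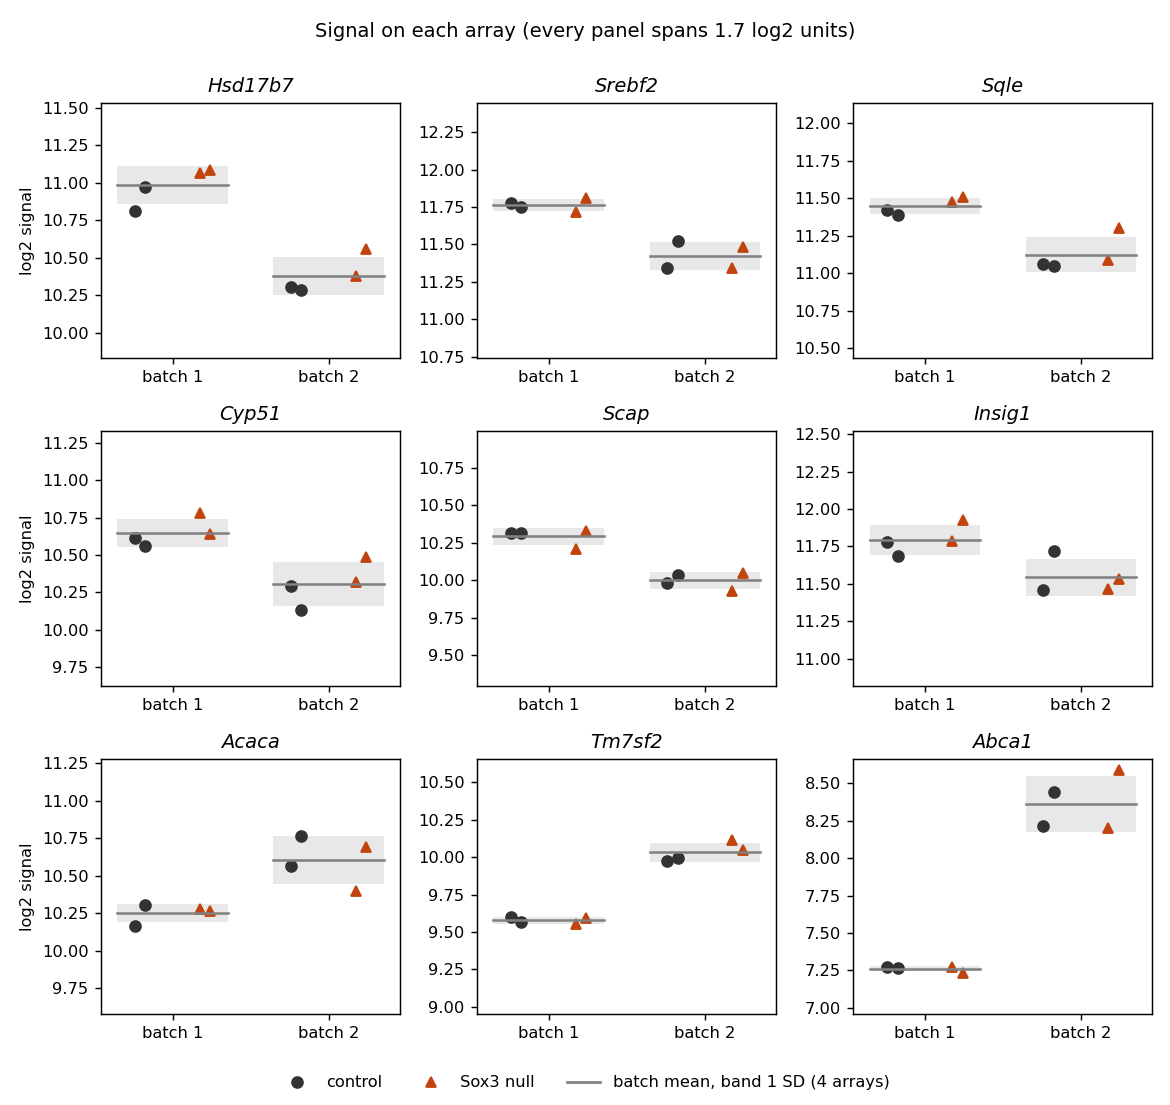
Log2 signal of 9 genes on each array, with control as circles and *Sox3* null as triangles, and the batch mean with a band of 1 SD over the 4 arrays of the batch. The vertical axes all span the same range but start at different levels. Batch 2 lies below batch 1 for *Hsd17b7*, *Srebf2*, *Sqle*, *Cyp51* and *Scap* and above it for *Acaca*, *Tm7sf2* and *Abca1*, and the batches of *Insig1* overlap.

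*Abca1*, which exports cholesterol from the cell, had the largest batch difference of the 31 genes. Its log2 signals in batch 1 were 7.27 and 7.27 in control and 7.27 and 7.23 in *Sox3* null cells, and in batch 2 they were 8.22 and 8.44 in control and 8.20 and 8.59 in *Sox3* null cells. Batch 1 was therefore uniform, with an SD of 0.0177 over 4 arrays, whereas batch 2 had an SD of 0.185. All 4 arrays of batch 1 lay below the median signal of the transcript clusters tested, which was 7.67. The log2 difference was 1.10 with an SE of 0.082 (adjusted p = 3.40e-05, limma), or 2.14-fold. The genotype difference of *Abca1* was 0.02 with a 95% interval of -0.16 to 0.21. *Stard4*, a carrier of sterols in the cytosol, had a batch difference of -0.14 (adjusted p = 0.0770, limma), with arrays of batch 2 all below those of batch 1.

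Of the 8 fatty acid genes 1 passed (12.5%, where 20.2% of all transcript clusters did), and their median log2 difference was 0.00. *Acaca*, acetyl-CoA carboxylase, the committed step of fatty acid synthesis, had 10.16 and 10.30 in control and 10.28 and 10.26 in *Sox3* null cells of batch 1, and 10.57 and 10.76 in control and 10.40 and 10.69 in *Sox3* null cells of batch 2. The log2 difference was 0.35 with an SE of 0.077 (adjusted p = 0.00823, limma), all arrays of batch 2 lay above those of batch 1, and a further *Acaca* transcript cluster gave 0.43 (adjusted p = 0.00519). *Acaca* missed the threshold in a plain linear model without shared variance (adjusted p = 0.0739), as did *Lss* (0.0602) and *Insig1* (0.138).

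The other fatty acid genes did not pass. *Fasn*, fatty acid synthase, had a difference of -0.06, and its arrays ran from 12.38 to 12.46 in batch 1 and from 12.15 to 12.57 in batch 2. *Acly* had 0.00 and the elongase *Elovl6* had -0.03. Of the desaturases, *Scd1* had 0.16 (adjusted p = 0.0739, limma), *Scd2* had 0.10, *Fads1* had -0.13 (adjusted p = 0.0825, limma) and *Fads2* had 0.00. The batches of *Scd1* and *Fads1* did not overlap.

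The batch difference was then fitted within each genotype, in the model of 4 group means. Each log2 difference came from the arrays of its own genotype alone. The variance was pooled over the arrays of both genotypes, so the p-values and counts of the genotypes are not separate tests. Within control cells 6 of 31 genes passed (19.4%, where 6.32% of all did). These were *Hsd17b7*, *Cyp51* and *Sqle*, which were lower in batch 2, and *Abca1*, *Tm7sf2* and *Acaca*, which were higher. The count was 2 without control replicate 1, 2 or 3, and 3 without control replicate 4, *Sox3* null replicate 1 or *Sox3* null replicate 2. Within *Sox3* null cells 4 passed (12.9%, where 8.93% of all did), with *Hsd17b7* and *Srebf2* lower and *Abca1* and *Tm7sf2* higher. The count within *Sox3* null cells ran from 0 in a plain linear model to 10 with an intensity trend in the variance or without transcript clusters below the median signal, and that within control cells was also 0 in a plain linear model, so the counts give no order of the genotypes. The log2 difference of *Hsd17b7* was -0.60 in control and -0.61 in *Sox3* null cells, and that of *Abca1* was 1.06 and 1.14. *Insig1* stood farthest from equality, at -0.14 in control and -0.36 in *Sox3* null cells.

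The batch difference had the same sign in both genotypes for 26 of the 31 genes (83.9%) and for 71.8% of all transcript clusters tested. Across the 31 genes Pearson's r between the batch differences of the genotypes was 0.965 and Spearman's rho was 0.939, and across all transcript clusters tested r was 0.778. This is a description across genes, which are not independent replicates, and the cultures of both genotypes went through the same pair of differentiations.

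**Figure D4:**
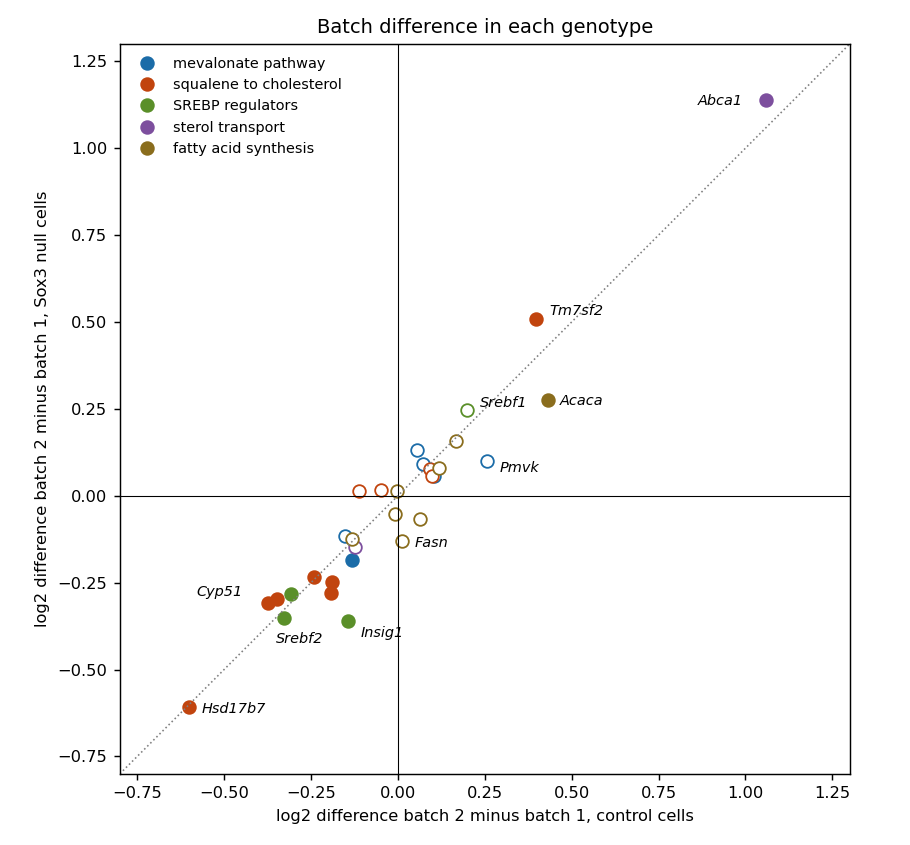
Log2 difference, batch 2 minus batch 1, in control cells (horizontal axis) and in *Sox3* null cells (vertical axis) for each of the 31 genes, coloured by role, with filled points for genes that passed over all 8 arrays. The dotted line marks equal differences. Points at lower left were lower and points at upper right higher in batch 2 in both genotypes, with *Hsd17b7* at -0.60 and -0.61 and *Abca1* at 1.06 and 1.14.

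A second list of 45 sterol, isoprenoid and fatty acid genes outside the 31 was counted in the same fit, of which 39 were measured. For genotype 0 of 39 passed (1.55% of all tested) and 3 had an unadjusted p below 0.05 (3068 of all 23410 transcript clusters tested). *Elovl2*, an elongase of polyunsaturated fatty acids, had 0.19 (adjusted p = 0.151, limma), *Pnpla3*, a lipase, had -0.26 (adjusted p = 0.223) and *Mlxipl*, a glucose-responsive transcription factor, had -0.14 (adjusted p = 0.343). For batch 16 passed (41%, where 20.2% of all transcript clusters did), 5 lower (12.8%, against 9.35%) and 11 higher in batch 2 (28.2%, against 10.9%), with a median log2 difference of 0.03. The count was 10 without *Sox3* null replicate 2 and 10 in a plain linear model. Among transcript clusters above the median signal, where not all 39 genes lie, 14.1% were lower and 18.8% higher.

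*Insig2*, the relative of *Insig1*, had log2 signals of 9.24 and 9.22 in control and 9.31 and 9.33 in *Sox3* null cells of batch 1, and 9.78 and 9.64 in control and 9.73 and 9.72 in *Sox3* null cells of batch 2. It was higher in batch 2 by 0.44 with an SE of 0.050 (adjusted p = 2.40e-04, limma), the opposite direction to *Insig1*. *Abcg1*, a sterol exporter and like *Abca1* an LXR target, had 7.94, 7.95, 7.76 and 7.89 in control replicates 1 and 2 and *Sox3* null replicates 1 and 2, and 8.19, 8.41, 8.25 and 8.24 in the same order in batch 2. It was higher by 0.38 with an SE of 0.059 (adjusted p = 0.00128, limma). *Nr1h3*, which encodes an LXR receptor, had a difference of 0.14 and did not pass (adjusted p = 0.252, limma).

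*Fabp5*, a fatty acid binding protein, was higher in batch 2 by 0.44 (adjusted p = 3.13e-04, limma), *Elovl2* by 0.31 (adjusted p = 0.00255) and *Osbpl9*, an oxysterol-binding protein relative, by 0.28 (adjusted p = 0.00391). *Cyp46a1*, the cholesterol hydroxylase of neurons, fell by 0.40 on the log2 scale (adjusted p = 0.00162, limma). For *Insig2*, *Abcg1*, *Fabp5*, *Elovl2* and *Osbpl9* all arrays of batch 2 lay above those of batch 1, and for *Cyp46a1* all lay below.

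Markers of the cell types these cultures can hold moved with batch as well. Of 37 markers measured in 5 lists, 17 passed for batch (45.9%, where 20.2% of all transcript clusters did), 12 lower (32.4%, against 9.35%) and 5 higher (13.5%, against 10.9%). Among transcript clusters above the median signal, where not all 37 markers lie, 14.1% were lower and 18.8% higher. Of 8 neural progenitor markers, 3 were lower in batch 2 (*Nes*, *Hes5* and *Zbtb16*) and 1 was higher (*Fabp7*), and their mean log2 signal lay between 11.6 and 11.8 on the arrays of batch 1 and between 11.4 and 11.7 on those of batch 2. Of 8 pluripotent cell markers 3 were lower (*Esrrb*, *Fgf4* and *Klf4*) and 2 higher (*Dppa5a* and *Tdgf1*), with means of 9.21 to 9.44 and 9.25 to 9.41. Of 6 neuron markers 1 was lower (*Stmn2*) and 2 were higher (*Dcx* and *Elavl4*), with means of 9.05 to 9.23 and 9.08 to 9.47. *Eomes*, *Gata6* and *Foxa2* were the 3 of 8 mesoderm and endoderm markers that were lower, with means of 6.83 to 7.09 and 6.71 to 6.77, and *Col1a1* and *Col1a2* the 2 of 7 fibroblast markers, with means of 6.61 to 6.82 and 6.43 to 6.60. For genotype, 4 of the 37 markers passed (10.8%, where 1.55% of all did). An unadjusted p below 0.05 was found for 17 of the 37 and for 3068 of all 23410 transcript clusters tested. *Nes* was higher in *Sox3* null cells by 0.49 (adjusted p = 0.00947, limma) and *Map2* by 0.47 (adjusted p = 0.0132), and *Nanog* fell by 0.37 (adjusted p = 0.0464) and *Thy1* by 0.51 (adjusted p = 0.00525). The estimates of all 8 neural progenitor markers were above 0, and 1 of these markers passed. Those of all 8 mesoderm and endoderm markers were below 0, and 0 passed. Of the neuron markers 5 were above 0 and 1 below (*Stmn2*, -0.17). Of the pluripotent cell markers 3 were above 0 and 5 below, and of the fibroblast markers 4 and 3. The part of these cells in the batch and genotype differences of the lipid genes was not tested.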

How the data were processed

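The authors deposited 1 table of log2 signals per transcript cluster for the 8 arrays, normalized and summarised by them with a method, and on a build, not given in the sources used here. Partek is named in the submitters' processing notes. Rows were named by the annotation of the platform, with symbols brought up to date from RefSeq's gene table (GRCm38.p6), and no coordinates of the arrays were used. A single symbol was found for 21789 of the 35556 rows and several for 1621, and 12146 rows had no name here.

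Genotype and batch were the terms of a linear model of the 23410 named transcript clusters, fitted in R 4.3.3 by limma 3.58.1, after the 2-way ANOVA of the methods. Benjamini-Hochberg adjustment covered all of these clusters. A gene passed at an adjusted p of 0.05 or less. Further models held the interaction or 4 group means. Where several transcript clusters carried a symbol, the one with the highest mean signal stood for the gene. Precision is limited by the number of arrays, and residual SDs had a median of 0.0869 on the log2 scale.

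The 31 genes, the second list and the 5 marker lists were chosen with earlier results of these data known. All 31 genes are named, with array values for the 4 regulators, the 10 genes with the smallest batch p and the 6 with the smallest genotype p, and up to 6 genes of the second list per comparison. *Lbr*, *Nr1h3* and the marker genes were named after their values had been seen. *Mbtps2*, *Nr1h2*, *Soat1*, *Pdss1*, *Acsl1* and *Acsl3* of the second list and *T* of the markers were not measured here. The steps were tested on simulated arrays over 23410 genes, where 87% of genes given a log2 batch difference of 0.5 passed and 21% of those given 0.25. Only 100 genes were changed at each size, whereas 4736 transcript clusters passed for batch in the data. The simulated shares for batch therefore need not hold there. The following were also tried: other rows, dim clusters left out, other variance estimates, scalings, batch and replicate terms, array weights, averaging of transcript clusters, each batch or genotype alone, a wider threshold and leaving out each array.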

Additional observations from a re-analysis of the deposited data

Results flagged for a closer look

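For each of the 31 genes the 4 arrays of either genotype and of either batch were searched for a single array far from the other 3, by Dixon's test at the 95% level. Of 124 groups of 4 arrays, 4 held such an array. For 4 like and independent arrays chance alone flags about 1 in 20. Here the arrays of a genotype come from both batches and the groups of a gene share arrays, so that rate need not hold. *Sox3* null replicate 4 had a log2 signal of 11.30 for *Sqle*, where the other arrays of batch 2 had 11.05 to 11.09. The same array had 11.60 for *Nsdhl*, where the other *Sox3* null arrays had 11.47 to 11.49. *Sox3* null replicate 1 had 10.21 for *Scap*, where the other arrays of batch 1 had 10.31 to 10.33. Control replicate 2 had 11.92 for *Acly*, where the other control arrays had 12.03 to 12.04. Without *Sox3* null replicate 4 *Sqle* still passed for batch, and without *Sox3* null replicate 1 so did *Scap*.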

How the results depend on the processing

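Of 26 single differences followed, none changed sign in the 24 alternatives run for each batch difference or the 26 run for each genotype difference. Apart from the regulators, they were chosen for small p-values on these same arrays. A change of sign was therefore unlikely, and nothing is drawn from this. For batch, *Hmgcs1* lost its call in 14 of the 24 alternatives and *Insig1* in 10, whereas *Abca1*, *Hsd17b7* and *Tm7sf2* kept theirs in all 24. The count of genes that passed for genotype was 0 under every setting run for it, as were those for the interaction and for genotype within each batch under those run for them, and 2 genes had a batch difference of 1.4-fold or more, with 3 when arrays were centred on the median of all rows or when *Sox3* null cells were fitted alone (*Tm7sf2* was added), and 2 under the others. Of the 31 genes, 13 passed for batch, 10 to 12 when each array was left out in turn, 6 when the 4 control arrays were fitted alone and 4 when the 4 *Sox3* null arrays were. Of the second list 16 passed for batch, 10 in a plain linear model, 4 when the control arrays were fitted alone, 4 when the *Sox3* null arrays were (6 and 5 in the model of 4 group means, which pools the variance) and 10 to 16 when each array was left out. Within control cells 6 passed in the model of 4 group means, 2 over all rows of the table, 0 in a plain linear model (13 with an unadjusted p below 0.05) and 2 to 7 when each array was left out. Within *Sox3* null cells 4 passed, 10 without transcript clusters below the median signal, 7 under a milder filter on dim transcript clusters, 0 in a plain linear model (14 with an unadjusted p below 0.05), 10 with an intensity trend in the variance, 8 after quantile normalization, 7 when transcript clusters of a gene were averaged and 3 to 5 when each array was left out. Centring on the named rows was chosen after seeing the data.

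Replicate numbers 1 to 4 occur in both genotypes. After group means were removed, same-numbered arrays correlated at -0.32 within batch 1 and 0.30 within batch 2. Same-numbered cultures thus deviated alike in batch 2 but not in batch 1, and no pairing by number held in both batches. With a replicate block in place of batch, 0 of 31 genes passed for genotype (4 with an unadjusted p below 0.05).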

Other observations

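Within batch 2, replicate 4 lay above replicate 3 in both genotypes for 14 of the 31 genes (45.2%) and below it in both for 5 (16.1%), where 30.6% of all transcript clusters tested lay above and 27.9% below. *Srebf1* had log2 signals of 9.78 against 9.49 in control and 9.67 against 9.45 in *Sox3* null cells, *Srebf2* had 11.52 against 11.34 and 11.48 against 11.35, and *Abca1* had 8.44 against 8.22 and 8.59 against 8.20. This was seen in the data first, these 3 genes were named after their values had been seen, and with 2 cultures of each genotype in the batch it was not tested.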
